A study of Homo sapiens with 2 samples.

Results

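The heat shock protein and DNAJ co-chaperone genes were compared between the parental human leukaemia line HL60 and R-HL60, a line selected from it for resistance to cytarabine. HL60 cells come from a myeloid leukaemia and resemble promyelocytes. Cytarabine, an analogue of deoxycytidine, stops DNA synthesis once cells have phosphorylated it. R-HL60 was obtained by keeping HL60 under rising cytarabine concentrations; per the labels its treatment is cytarabine and that of HL60 is none. The sources used here do not say whether R-HL60 is 1 clone or whether the drug was in the medium at harvest. Each line was measured on 1 Agilent one-colour (Cy3) array. Genes were taken as members when their name began with HSPA, HSPB, HSPD1, HSPE1, HSPH1, HSP90, DNAJA, DNAJB or DNAJC followed, where the family is numbered, by a digit. This gave 81 of 43270 genes and transcripts, on 118 of 58201 probes. Of the 81, 72 were protein coding, 4 were pseudogenes and 5 were antisense or divergent transcripts.

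Heat shock proteins are molecular chaperones that bind unfolded polypeptides and help them fold, refold or reach their compartment. HSP70 proteins (HSPA genes) work in a cycle of ATP hydrolysis that DNAJ proteins, also called HSP40, start by delivering the substrate, and that nucleotide exchange factors such as HSPH1 end. HSP90 proteins mature signalling clients, small heat shock proteins (HSPB genes) hold unfolded chains without ATP, and HSPD1 with HSPE1 forms the folding chamber of mitochondria. The transcription factor HSF1 drives the inducible genes through heat shock elements, repeats of GAA in alternating orientation, while the chaperones of the endoplasmic reticulum (ER) answer to the unfolded protein response through elements such as ERSE.

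With 1 array per line there were no replicates, so the values below carry no test, p-value or SE. The array and the line cannot be told apart. In RNA from a whole culture, fewer cells with a transcript and less of it per cell cannot be told apart either. Differences are log2 values, R-HL60 minus HL60, after each array was set relative to its own 75th percentile signal (292 and 294 units). A gene with several probes is represented by its brightest. The array's median signal, 30.7 on the HL60 and 32.8 on the R-HL60 array, served as the floor. Repetition existed only where a gene had several probes. The SD between these was 0.19 over 4723 genes, from 0.33 in the dimmest to 0.13 in the brightest of 5 equal bins of genes, and it leaves out variation between cultures and arrays. All 9 promyelocytic marker genes examined were above the floor on both arrays, with a summed signal of 912834 in HL60 and 820977 in R-HL60 that is mostly MPO and CTSG. Among them ELANE, or neutrophil elastase, had 699.7 and 153 units (log2 difference -2.20) and PRTN3, or proteinase 3, had 32955 and 18985 (-0.80). The summed signals were 2903 and 3185 for 7 lymphoid markers, of which 5 were above the floor on both arrays, 1150 and 1216 for the 5 erythroid and megakaryocytic markers found by name, of which 4 were, and 1670 and 1874 for 5 epithelial markers, of which 3 were. They were 57.8 and 67.2 for 5 fibroblast markers, of which none was. The part of such transcripts in the results was not tested.

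Promoters of 8 members are shown first: inducible and constitutive HSP70 genes and the DNAJ genes with the largest differences, for their heat shock elements, and a pair of ER chaperones, for ERSE. They are RefSeq sequences of GRCh38.p14, each running up to the base before an annotated start and written on the gene's strand. Capitals mark heat shock element pairs (GAANNTTC or TTCNNGAA, each its own reverse complement) in the first 6 and ERSE (CCAAT, any 9 bases and CCACG, on either strand) in the last pair. DNAJB1, DNAJB4 and DNAJA4 have several annotated starts, and the second one listed is shown because the windows of the others held no such pair.
HSPA1B, chr6:31827588-31827737, plus strand: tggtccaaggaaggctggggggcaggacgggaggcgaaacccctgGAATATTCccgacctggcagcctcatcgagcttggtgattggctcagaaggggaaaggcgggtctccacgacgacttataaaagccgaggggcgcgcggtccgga
HSPA1A, chr6:31815393-31815542, plus strand: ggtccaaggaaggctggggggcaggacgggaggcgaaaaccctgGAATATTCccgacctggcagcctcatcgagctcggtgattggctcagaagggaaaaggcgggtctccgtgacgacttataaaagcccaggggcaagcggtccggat
HSPA8, chr11:123062137-123062386, minus strand: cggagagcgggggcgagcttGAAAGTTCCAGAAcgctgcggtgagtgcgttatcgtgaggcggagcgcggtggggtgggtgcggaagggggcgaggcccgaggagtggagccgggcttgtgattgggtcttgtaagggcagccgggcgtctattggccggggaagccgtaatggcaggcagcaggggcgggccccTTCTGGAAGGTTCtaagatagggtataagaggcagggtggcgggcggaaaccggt
DNAJB1, chr19:14518398-14518547, minus strand: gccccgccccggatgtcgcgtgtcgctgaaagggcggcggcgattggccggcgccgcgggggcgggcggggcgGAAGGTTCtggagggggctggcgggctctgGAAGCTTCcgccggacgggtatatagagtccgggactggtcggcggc
DNAJB4, chr1:78004789-78004938, plus strand: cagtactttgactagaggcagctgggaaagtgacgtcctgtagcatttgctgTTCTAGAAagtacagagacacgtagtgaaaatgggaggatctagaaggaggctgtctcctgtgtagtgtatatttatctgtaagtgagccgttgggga
DNAJA4, chr15:78264412-78264561, plus strand: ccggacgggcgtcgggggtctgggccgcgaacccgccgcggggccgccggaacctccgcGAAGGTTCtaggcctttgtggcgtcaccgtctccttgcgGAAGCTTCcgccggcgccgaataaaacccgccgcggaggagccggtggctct
HSPA5, chr9:125241344-125241493, minus strand: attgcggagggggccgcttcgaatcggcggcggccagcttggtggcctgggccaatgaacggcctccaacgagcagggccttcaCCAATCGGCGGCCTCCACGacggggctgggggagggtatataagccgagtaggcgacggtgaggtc
HSP90B1, chr12:103930160-103930409, plus strand: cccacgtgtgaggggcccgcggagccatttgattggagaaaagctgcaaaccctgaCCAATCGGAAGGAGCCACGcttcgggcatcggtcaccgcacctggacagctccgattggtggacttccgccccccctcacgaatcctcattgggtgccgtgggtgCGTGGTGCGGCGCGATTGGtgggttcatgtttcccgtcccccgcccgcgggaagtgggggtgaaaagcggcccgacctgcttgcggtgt

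Most members were slightly lower on the R-HL60 array, and none reached 2-fold in either direction. Of the 81 members, 63 were above the floor on both arrays, 2 on 1 array and 16 on neither. In the background of all genes above the floor on 1 or both arrays, the 2-fold mark was passed upwards by 0.786% and downwards by 0.297%. At 1.5-fold, 1 of the 65 members was higher, HSPA1L, and 2 were lower, HSPA1B and DNAJB4, where the background was 3.53% of genes higher and 1.38% lower.

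The small differences ran mainly in one direction. Of the 63 members measured on both arrays, 48 had a difference below 0 (76.2%), where 57.2% of all genes did. With the arrays set to equal medians, these were 52 of the 63 and 72.9% of all genes. The median difference was -0.16 over the members and -0.03 over all 21838 genes measured on both arrays. The members were bright: 24 of the 63 lay in the brightest bin and 19 in the next, and in both the median of all genes was -0.06. After a loess curve on brightness had been taken out, leaving 49.3% of all genes below 0, 45 of the 63 members were below 0 and their median was -0.09.

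**Figure D1:**
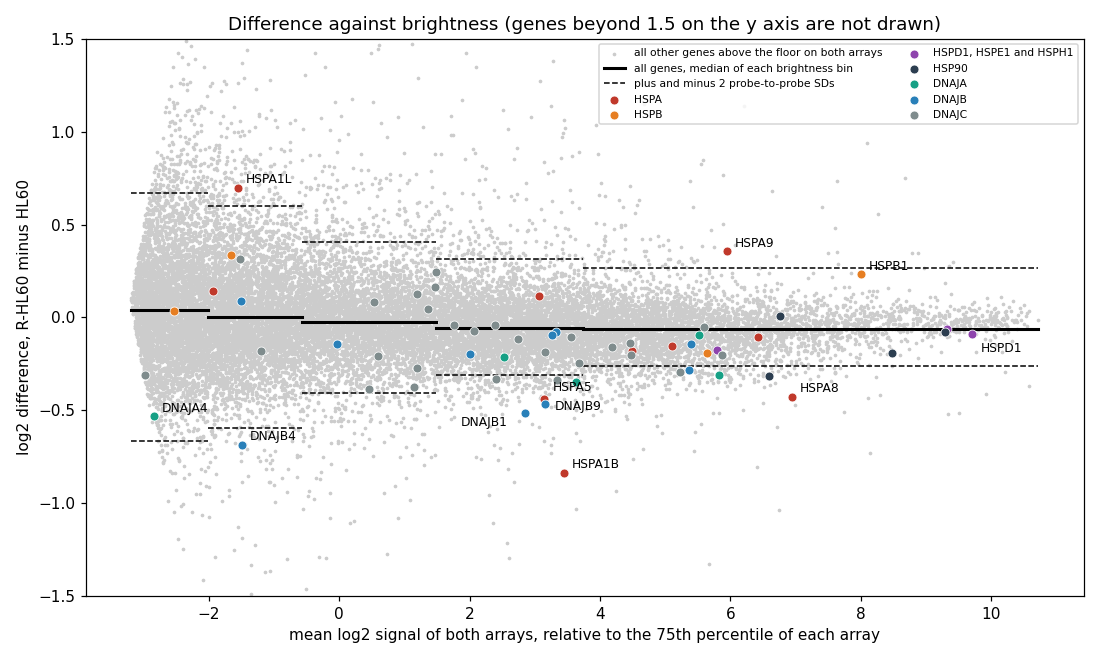
The log2 difference (R-HL60 minus HL60) of each gene measured on both arrays is plotted against its mean log2 signal relative to the 75th percentile of each array; coloured points are members by family, grey points all other genes, solid lines the median of all genes in each of 5 bins of brightness and dashed lines 2 probe-to-probe SDs. HSPA1B, HSPA8, HSPA5, DNAJB1 and DNAJB9 lie below the lower dashed line, and HSPA9 and HSPA1L above the upper one.

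The spread between probes of the same gene was taken in bins of brightness. A gene was binned by its brightest probe, and its other probes could be much dimmer. Against that spread, 13 members (20.6%) were lower by more than 2 probe-to-probe SDs, compared with 3.72% of all genes. Members higher by that margin were 2, HSPA1L and HSPA9, against 4.14% of all genes. The 13 were HSPA1B, HSPA5, HSPA8, DNAJB1, DNAJB4, DNAJB9, DNAJB11, DNAJA1, DNAJC2, DNAJC13, DNAJC21 and the pseudogenes DNAJA1P5 and HSP90AA2P. The probes of these pseudogenes may also bind transcripts of DNAJA1 and HSP90AA1. This margin is a description of size, not a test between the lines. It was centred on 0, and the shares of all genes cover all 5 bins. Of the 63 members, 24 lay in the brightest bin and 19 in the next, where the SDs are smallest. In both of these bins the median of all genes was -0.06. No share matched for brightness was computed. All but 1 of these 15 genes rested on a single measured probe; DNAJC21 had a further one at -0.21. Of the 26 members with several measured probes, all probes had the same sign in 21.

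The HSP70 genes spread most. HSPA1B, the stress-inducible cytosolic HSP70, had a signal of 4248 in HL60 and 2393 in R-HL60, 1.79-fold lower (log2 difference -0.84, with a probe-to-probe SD of 0.16 for its brightness). HSPA8, the constitutive cytosolic HSP70 that also uncoats clathrin vesicles, had 41941 and 31368, 1.35-fold lower (-0.43). HSPA5, the ER HSP70 known as BiP or GRP78, had 2991 and 2223, also 1.35-fold lower (-0.44). These 3 genes are the main inducible, constitutive and ER forms of HSP70, and all were lower on the R-HL60 array.

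The mitochondrial HSP70 went the other way. HSPA9, or mortalin, which pulls proteins through the inner membrane and folds them in the matrix, had 15960 in HL60 and 20535 in R-HL60, 1.28-fold higher (0.36, with a probe-to-probe SD of 0.13). HSPA1L, a testis-enriched HSP70, was dim and had 77.9 and 127, 1.62-fold higher (0.70, SD 0.30). HSPA6, an HSP70 that is induced only by strong stress, went from 72.7 to 80.7 on its represented probe (0.14) and from 77.9 to 52.7 on another (-0.57), so its direction is not settled. The remaining measured genes with HSPA names were HSPA4 (-0.11), HSPA4L (0.11), HSPA13 (-0.18) and HSPA14 (-0.16). HSPA2, HSPA12A and HSPA12B were below the floor on both arrays.

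HSPA1A, HSPA1B and HSPA1L lie side by side on chromosome 6. HSPA1A, which encodes the same inducible HSP70 as HSPA1B, had only 23.9 in HL60 and 32.9 in R-HL60 on its single probe. It was just above the floor on the R-HL60 array only, with a bound of 0.09. The coding sequences of HSPA1A and HSPA1B are known to be nearly identical, so neither probe can be assumed to separate the genes, and the value given for HSPA1B may hold transcripts of both. Their upstream windows are also close to identical, with the same base at 235 of 249 aligned positions (94.4%). HSPA1L starts on the opposite strand beside HSPA1A, and the upstream windows of these genes share 241 bases. The element GAATATTC printed above therefore lies 106 bases before the HSPA1A start, 161 before that of HSPA1L and, in the copy at HSPA1B, 105 before its start.

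The cytosolic DNAJ proteins that serve HSPA8 and HSPA1B were lower too. DNAJB1, the main stress-inducible HSP40, had 2506 in HL60 and 1762 in R-HL60, 1.43-fold lower (-0.52). DNAJB4, a related class B protein, was dim and had 131 and 82.0, 1.61-fold lower (-0.69, SD 0.30). DNAJA1, an abundant class A protein, had 18492 and 15022, 1.24-fold lower (-0.31). DNAJA4, another class A protein, had 49.1 and 34.2 (-0.53), but its value in R-HL60 was barely above the floor and the probe-to-probe SD at that brightness is 0.33. DNAJA2 was at -0.21, and DNAJB6 and DNAJB2, which suppress aggregation, were at -0.15 and -0.20. Further probes of DNAJB6 reached -0.04 and one of DNAJB2 gave -0.02. All 5 measured DNAJA entries, the pseudogene DNAJA1P5 included, had values below 0 (family median -0.31), as did 9 of 10 DNAJB genes (median -0.17). Of all genes, 57.2% did. These families are not all cytosolic. They also hold the mitochondrial DNAJA3 and, in the ER, DNAJB9, DNAJB11, DNAJB12 and DNAJB14. Both family medians were below 0 in each of 9 alternative settings. DNAJA1P5 itself was at -0.35, but its probe may also bind DNAJA1 transcripts. DNAJB3, DNAJB7, DNAJB8, DNAJB8-AS1 and DNAJB5-AS1 were below the floor on both arrays.

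**Figure D2:**
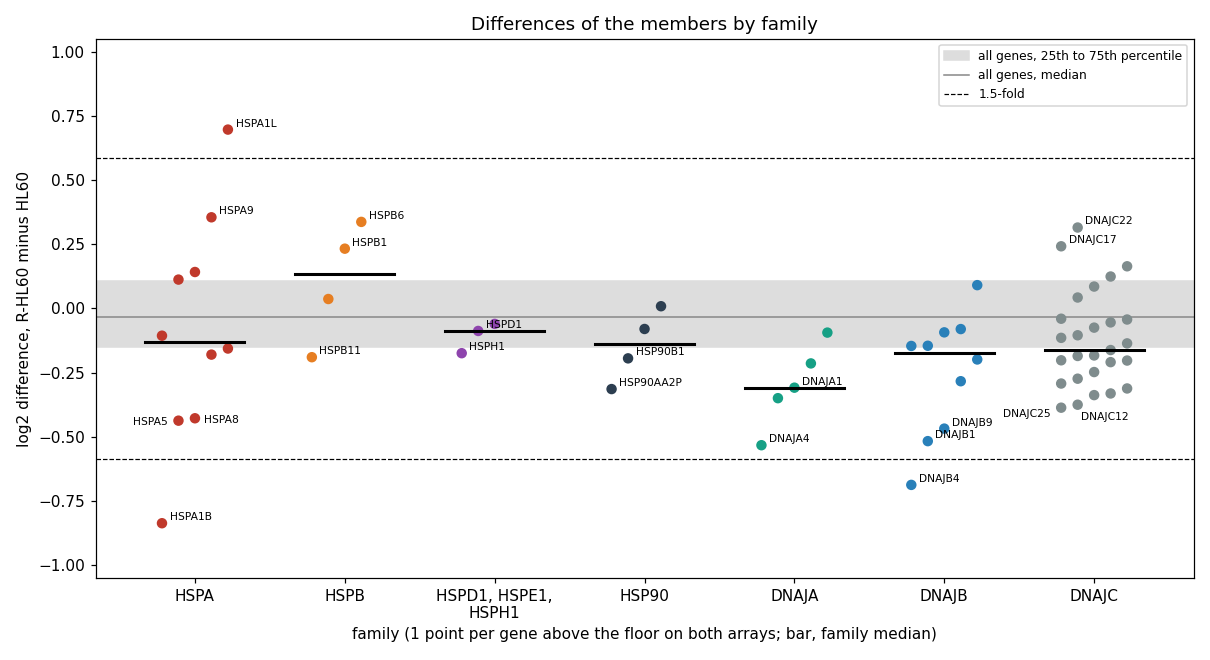
Each point is the log2 difference (R-HL60 minus HL60) of 1 gene above the floor on both arrays, by family, with the family median as a bar, 1.5-fold as dashed lines and the 25th to 75th percentile of all genes in grey. The DNAJA and DNAJB genes lie mostly below 0, and the HSPA genes run from HSPA1B at -0.84 to HSPA1L at 0.70.

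HSP90 genes and the chaperonin genes were bright, with differences from -0.31 to 0.01. HSP90AA1, the inducible cytosolic HSP90, had 188394 in HL60 and 179308 in R-HL60 (-0.08). Its other probes, also bright, gave -0.28 and -0.26, and the mean of all its probes was -0.21. HSP90AB1, the constitutive form, had 31637 and 32019 (0.01, from -0.08 to 0.09 over the alternative settings, with a further probe at -0.04). The entry HSP90AA2P was at -0.31, and as a pseudogene of HSP90AA1 its probe may bind that gene's transcripts. HSP90AB4P was below the floor on both arrays. HSPD1, or HSP60, had 251457 and 238060 (-0.09), and its partner HSPE1, or HSP10, had 191408 and 184703 (-0.06). HSPH1, or HSP110, which releases ADP from HSP70, had 17289 and 15414 (-0.17, with a further probe at -0.24).

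Small heat shock proteins were the one family with a median above 0, at 0.13 over 4 measured genes, and it was above 0 in each of 9 alternative settings. HSPB1, or HSP27, had 69269 in HL60 and 81890 in R-HL60, 1.18-fold higher (0.23), and its 3 probes ran from 0.16 to 0.26. HSPB6 (0.34) and HSPB9 (0.04) were dim. HSPB9 turned to -0.05 with the arrays set to equal medians. HSPB11, now named IFT25 and known as a subunit of intraflagellar transport, was at -0.19 on its represented probe and at 0.06 on another. HSPB2, HSPB3, HSPB7 and HSPB8 were below the floor on both arrays, so the only bright genes of the family were HSPB1 and HSPB11, whose represented probes lay on opposite sides of 0.

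**Figure D3:**
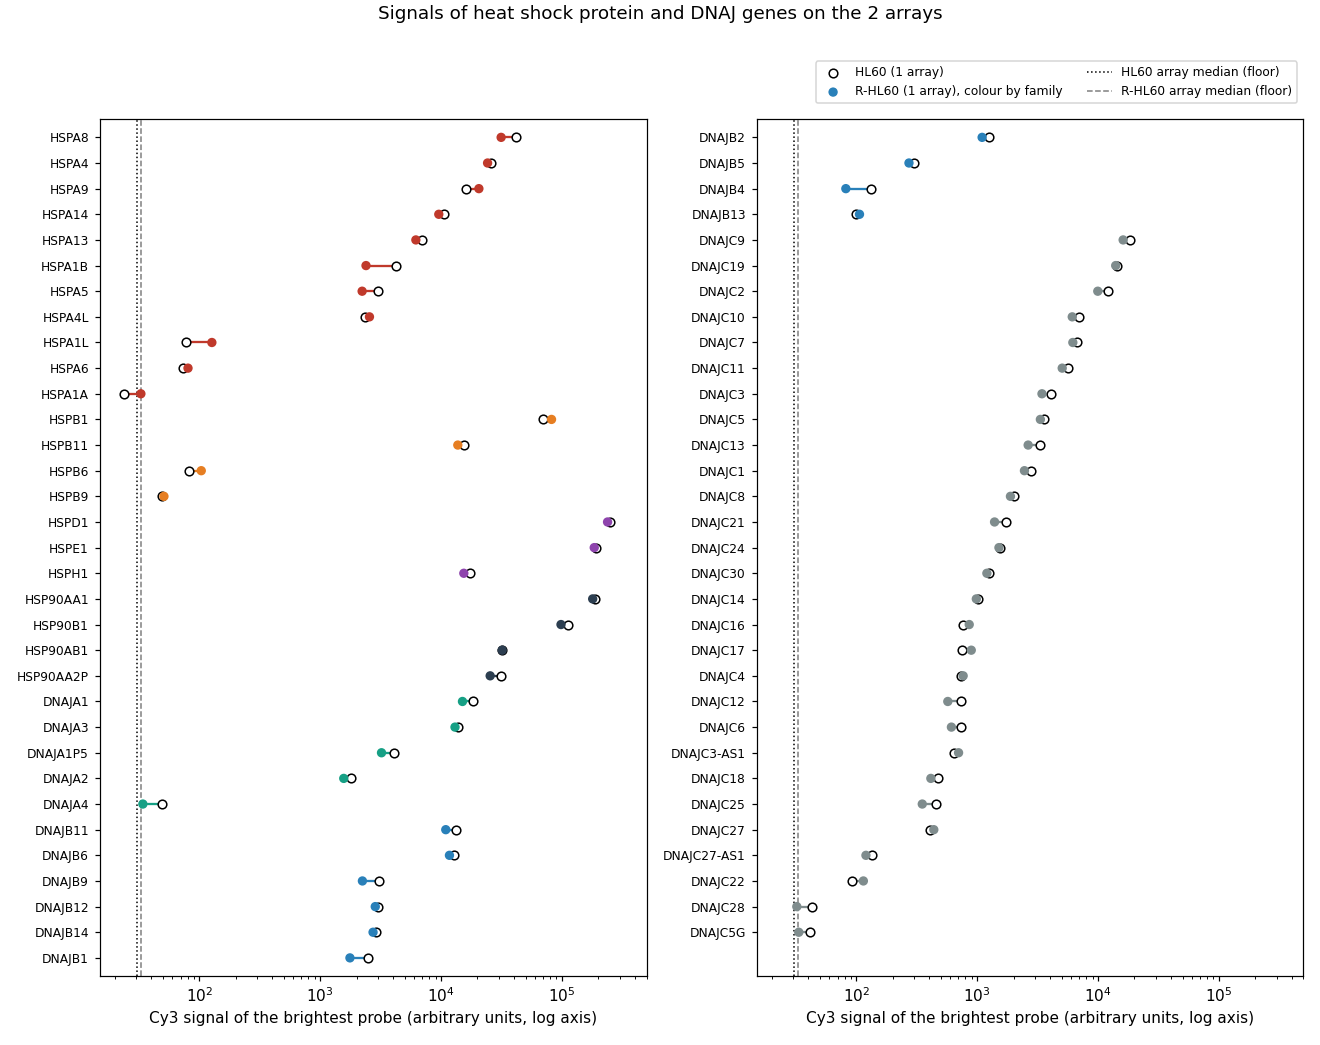
Signals of the 65 members that passed the floor on either array are shown on a log axis, with open circles for HL60, filled circles for R-HL60 (1 array each, coloured by family) and vertical lines at the floors. Most filled circles lie slightly to the left of the open ones, and those of HSPA9, HSPB1 and HSPA1L lie to the right.

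The 10 members put in an ER set, which was drawn up after the data had been seen, were all lower on the R-HL60 array. Their differences ran from -0.47 to -0.08, with a median of -0.20. Of all genes measured on both arrays, 57.2% were below 0, or 72.9% with equal medians. All 10 members were below 0 in each of 9 alternative settings, which reuse the same 2 arrays. A change of floor left their values unchanged, and quantile normalization and the authors' normalized table gave nearly the same median (-0.15). DNAJC16, an ER protein outside that set, was at 0.16. DNAJB9, or ERdj4, a co-chaperone of BiP that is induced by the unfolded protein response, had 3072 in HL60 and 2235 in R-HL60, 1.38-fold lower (-0.47). DNAJB11, or ERdj3, which binds substrates for BiP, had 13223 and 10930 (-0.28). HSP90B1, or GRP94, the ER form of HSP90, had 111558 and 98082 (-0.19, with a further probe at -0.27). DNAJC3, or P58IPK, was at -0.25, DNAJC10, the reductase ERdj5, at -0.20, DNAJC1 at -0.18, and each had a further measured probe below 0, the closest to 0 being that of DNAJC3 at -0.06. The 2 members nearest 0 were DNAJB12 and DNAJB14, which sit in the ER membrane. HSPA5 and HSPA13, given above, completed the set.

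The members put in a mitochondrial set, also drawn up after the data had been seen, were close to 0 apart from HSPA9. The values depend on which genes were put in that set. Of 7 measured, 6 were below 0, with a median of -0.07 and a range from -0.16 to 0.36. DNAJA3, a co-chaperone of HSPA9, was at -0.09, and DNAJC19, of the import motor, at -0.05 (from -0.14 to 0.02 over the alternative settings), with a further probe at -0.19. DNAJC15, another import motor protein, was below the floor on both arrays at 4.45 and 9.35 units. With quantile normalization, loess or the authors' normalized table, 5 of the 7 were below 0.

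The DNAJC proteins, which share only the J domain and act in many places, had a median of -0.16 over 27 measured entries, 21 of them below 0. The lowest was DNAJC25 at -0.39, from 457 in HL60 to 352 in R-HL60. DNAJC12, which helps fold aromatic amino acid hydroxylases, went from 737 to 572 (-0.37), and DNAJC13, an endosomal protein, from 3317 to 2641 (-0.34). DNAJC21, a factor of ribosome maturation, was at -0.33, and DNAJC2, which acts at the ribosome with HSPA14, at -0.29. The bright DNAJC9, a histone chaperone, was at -0.20, with another measured probe at -0.06. Among those above 0 were DNAJC22 at 0.32, on a dim probe, and DNAJC17 at 0.24. DNAJC28 was above the floor on the HL60 array only, with a bound of -0.40. The antisense transcript DNAJC27-AS1 was at -0.18 on its represented probe and 0.55 on another, so its direction is not settled. DNAJC5B and DNAJC9-AS1 were below the floor on both arrays.

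A set of 12 genes, labelled heat-inducible here, held HSPA1A, HSPA1B, HSPA1L, HSPA6, HSPA8, HSPB1, HSPH1, DNAJB1, HSP90AA1, HSP90AB1, HSPD1 and HSPE1. The label does not suit all of them, since HSPA8 and HSP90AB1 are constitutive forms and HSPA1L is testis-enriched. Several are also abundant without stress. Of the 11 measured on both arrays, 7 were below 0, with a median of -0.08. The 4 above 0 were HSPA1L, which was dim, HSPB1, HSPA6, whose probes disagreed, and HSP90AB1, which was at 0.01. With the mean of all probes in place of the brightest, 9 of 11 were below 0 and the median was -0.21. In the 250 bases before an annotated start, 20 of 65 protein-coding members found in the promoter table held at least 1 heat shock element pair (30.8%), against 14.0% of 27305 genes. Of these 20, 15 were measured on both arrays, 9 of them below 0, with a median of -0.09. Of the 40 measured members without a pair, 33 were below 0, with a median of -0.17. Runs of 3 alternating GAA and TTC units, any 2 bases apart, which contain the pairs, were found in 6 members (9.23%) and in 0.557% of genes. HSPA8 held them at 230 and 55 bases before its start. The other 5 were DNAJB6, HSP90AA1, HSP90AB1, HSPA6 and HSPD1. ERSE was found in HSPA5 at 66 bases and in HSP90B1 at 194 and 89 bases before the start, and in 0.0916% of genes. These background shares also count non-coding genes, whereas the members compared with them are protein coding, so the gene classes differ. A match is a run of letters and not a site shown to be used.

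Genes that regulate or assist the chaperones were mostly nearer 0. HSF1, the main heat shock factor, was at -0.16, and HSF2 was at 0.00. Of the heat shock factor list 3 of 6 measured were below 0 (median -0.04), with HSPBAP1 at 0.31 and HSF4 at 0.23. Of 18 further co-chaperones of HSP70, 15 were below 0 (median -0.11). The exchange factors BAG2 and HYOU1, an ER protein, were at -0.23 and -0.22. GRPEL1, an exchange factor of HSPA9, was at -0.20, while the related GRPEL2 was at 0.10. BAG3, a target of HSF1, was below the floor on both arrays. Of 26 HSP90 co-chaperones and related genes 15 were below 0 (median -0.05), with NUDCD1 at -0.31, AHSA2P at 0.22 and CHORDC1 at -0.19. A further list held 17 genes of the TRiC and prefoldin complexes, which fold actin and tubulin, and of prefoldin-like proteins such as URI1. Of these, 13 were below 0 (median -0.05), with CCT5 at -0.35, CCT2 at -0.22 and URI1 at -0.16. The CCT5 value rests on 1 probe with 271 units in HL60 and 214 in R-HL60, the dimmest of that list. None of these genes reached 1.5-fold. With quantile normalization or loess, the medians of the heat shock factor list and of the HSP90 co-chaperones turned to between 0.01 and 0.02.

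Folding enzymes of the ER had a median near that of the ER members. Of 25 measured, 22 were below 0, with a median of -0.19, and none reached 1.5-fold. SDF2L1, which works with BiP and DNAJB11, was at -0.51, ERP44, which retains thiol proteins, at -0.39, and MANF, a secreted ER stress protein, at -0.35. The ERP44 value rests on 1 probe with only 283 units in HL60 and 217 in R-HL60. With loess on brightness 17 of the 25 were below 0 and the median was -0.13. Mitochondrial proteases and AAA chaperones had a median of -0.03 over 10 genes, with AFG3L2 at -0.12, OMA1 at 0.10 and CLPB at 0.09, and the median turned to 0.02 with quantile normalization and 0.03 with loess.

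**Figure D4:**
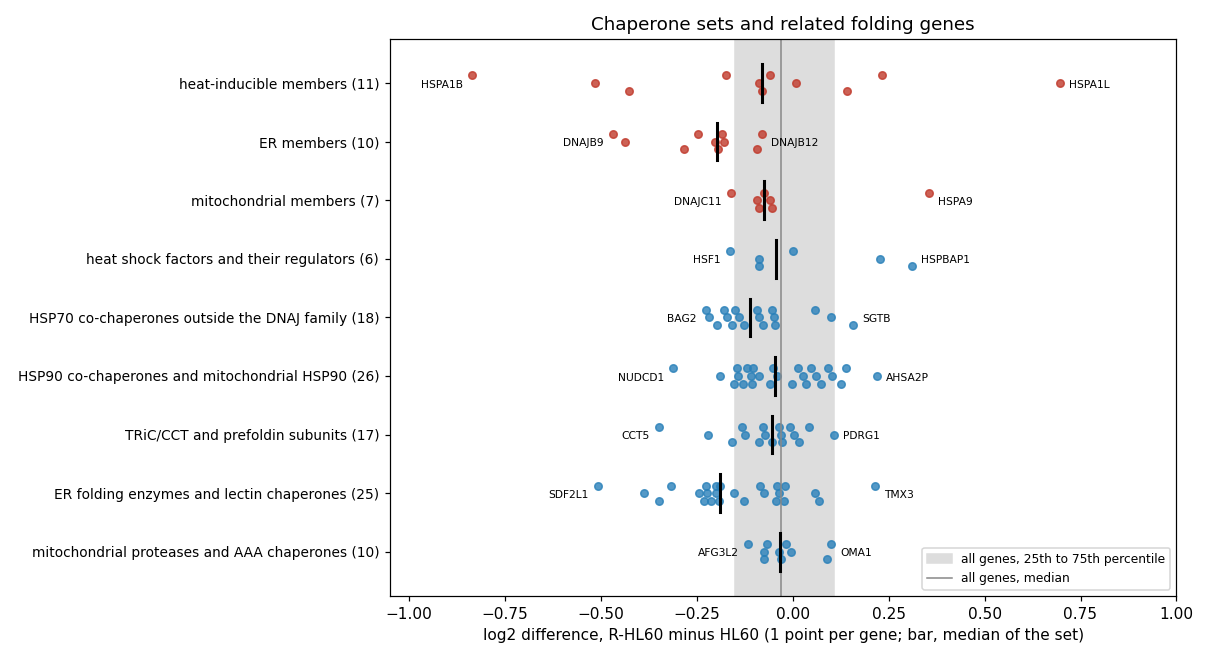
Each point is the log2 difference (R-HL60 minus HL60) of 1 gene measured on both arrays, for sets of members (red) and lists of related folding genes (blue), with the median of each set as a bar and the 25th to 75th percentile of all genes in grey. The ER members and the ER folding enzymes have medians of -0.20 and -0.19, and the mitochondrial members lie near 0 except HSPA9 at 0.36.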

How the data were processed

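Features were read with Agilent Feature Extraction 10.7.3.1, as the submitters' processing notes name it. The deposited files hold 1 linear Cy3 intensity per probe and a gene name; the scanner column, the background correction and the normalization method of the authors' table are not given in the sources used here. Signals were taken to log2 and set relative to the 75th percentile of each array, with the array median as floor because no detection flags were at hand. Older gene names were updated through the RefSeq table of GRCh38.p14. A gene above the floor on 1 array has a bound, in which its dim signal was raised to that array's floor. Named members were fixed sets of heat-inducible and organelle genes and every member past 1.5-fold or with only a bound. Up to 4 with the largest differences and the 2 brightest of each family were named too, as were members whose probes disagreed. From each of 6 further lists, up to 3 genes were named. DNAJB2, DNAJB12, DNAJB14, DNAJC2, DNAJC16, DNAJC17, DNAJC22, HSPA4L, HSPA13, HSPA14, HSF2, BAG3 and GRPEL2 were named after their values were seen. The members and lists were chosen with earlier results of these data known. Promoters were matched by symbol, and the motif searches and sets by compartment were added after seeing the data. The number of arrays limits the precision. The steps were tested on simulated data. The differences planted there were larger than nearly all of those of the members and lay in genes well above the floor. That test does not cover small shifts or dim genes. Analyses used Python 3.11.15, numpy 2.4.6, pandas 2.3.3, statsmodels 0.14.6 and matplotlib 3.10.9.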

Additional observations from a re-analysis of the deposited data

How the results depend on the processing

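The settings varied were the scaling (quantile, equal medians, loess, the authors' normalized table), an offset of 50 units, the floor (40th or 60th percentile, or no floor), the mean of all probes, and protein-coding members alone. The count of members at least 2-fold higher, 0, became 6 without a floor, all of them genes below the floor on both arrays. Members at least 1.5-fold higher, 1, became 0 with the offset, 2 with the floor at the 40th percentile, 8 without a floor and 2 with the mean of all probes. Members at least 1.5-fold lower, 2, became 4 with equal medians and 1 with the offset. The HSPA median became 0.13 without a floor. The other 159 of 167 counts and medians stayed within 1.5 times (counts) or 0.19 (medians, the probe-to-probe SD) of their value. That margin is wider than most of the medians, so a median could change sign and still be counted here. Those of the heat shock factor list, the HSP90 co-chaperones and the mitochondrial proteases did so. HSPA1B ran from -0.93 to -0.77 over 9 alternatives, past 1.5-fold in each, while DNAJB4 (-0.46) and HSPA1L (0.46) were not with the offset. The alternatives reuse the same 2 arrays and overlap. A change of floor or the mean of all probes cannot move a bright gene with 1 probe, such as HSPA1B. Quantile normalization and the authors' normalized table gave HSPA1B nearly the same value (-0.78). With the mean of all probes HSPA6 was -0.22 and HSPB11 0.02. Dim genes such as DNAJA4, HSPA1A and HSPB6 are limited by their signal near the floor. No paired analysis was possible because each line had 1 array.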

Other observations

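Some chaperones of these families carry other current names and were found through the older names in the gene table, a step added after seeing the data. CRYAB, the alpha-B crystallin also called HSPB5, had 58.3 in HL60 and 90.4 in R-HL60, 1.54-fold higher (log2 difference 0.62, or 0.37 with the offset of 50 units, on 1 dim probe). SEC63, or DNAJC23, the J protein of the ER translocon, was at -0.13, CRYAA, or HSPB4, at -0.14 and the mitochondrial HSP90 gene TRAP1 at -0.11. GAK, or DNAJC26, which uncoats clathrin vesicles with HSPA8, was at 0.08, and HSCB, or DNAJC20, which serves HSPA9 in iron-sulphur cluster assembly, was at 0.05.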
